A study of Homo sapiens with 12 samples.

Results

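The mitochondrially encoded mRNAs were taken as the probe sets whose only gene symbol is a protein gene of the mitochondrial genome, in cytoplasmic RNA of U2OS cells. Such probe sets numbered 54 of the 357604 that carry exactly 1 gene symbol, and they cover all 13 mitochondrial protein genes, of 19488 genes in all. All 54 passed the filter on dim probe sets, and 10 of the 13 genes had the 3 probe sets needed for the gene test, among 16883 genes tested. ND3, ND4L and ATP8 had 1 probe set each and were tested as single probe sets.

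U2OS is a human osteosarcoma line, and the study asks which RNAs are capped again in the cytoplasm. Cells of every group stably carry K294A, an inactive form of the capping enzyme, under doxycycline control, and the labels do not say whether the line is 1 clone. No group received doxycycline without carrying K294A, so effects of K294A and of doxycycline itself cannot be told apart. The 4 groups hold 3 arrays each. They are induced Xrn1 (24 h of doxycycline, 1 ug/ml, and digestion of the RNA with Xrn1), uninduced Xrn1 (no doxycycline, the same digestion), induced untreated (doxycycline, no digestion) and uninduced untreated (neither). The RNA came from the cytoplasmic extract of the cells and was cleared of ribosomal RNA, and the labels do not say how much of the mitochondria such an extract holds. They call the 3 samples of each group biological replicates, with 1 number repeated among the induced Xrn1 samples, but name no separate cultures. Each p-value thus rests only on spread between these samples, which may be technical. The main gene tests used 1 SD common to all genes, 0.418, in place of each gene's own spread.

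The mitochondrial genome encodes subunits of complexes I, III and IV of the respiratory chain and of ATP synthase. Its long transcripts from both strands are cut in the matrix, mostly at the tRNAs that lie between the coding regions, and the mRNAs never meet the nuclear enzymes that add the methylguanosine cap. Xrn1 digests RNA from a 5' end that carries a single phosphate, and a cap blocks it. ND6 is encoded on the light strand and the other 12 on the heavy strand, while ND4L with ND4, and ATP8 with ATP6, overlap and share an RNA.

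All values are log2 probe set values made by the authors with RMA, which normalises the arrays to each other, so a change is relative to the other RNAs measured. A gene's level is the mean of its probe sets, and changes are Xrn1 minus untreated or induced minus uninduced, tested with limma over all genes and adjusted by Benjamini-Hochberg, with a threshold of 0.05. The number of arrays, 3 per group, limits the precision. Array medians lay between 2.09 and 2.25. Genes above a level of 6 numbered 144 to 298 on the induced Xrn1 arrays, 110 to 151 on the uninduced Xrn1 arrays, 327 to 823 on the induced untreated arrays and 760 to 1114 on the uninduced untreated arrays. Some arrays stood apart from their label. Induced untreated replicate 3 correlated at 0.979 with an uninduced untreated array and at 0.870 at most within its group, across genes, which are not independent replicates. Uninduced Xrn1 replicate 2 reached only 0.711 and 0.847 within its group. For 3 further arrays the best match was an array of the same treatment in the other induction state. These were induced untreated replicate 2 (0.894, against 0.888 at most within its group), uninduced untreated replicate 3 (0.979, against 0.967) and uninduced Xrn1 replicate 1 (0.938, against 0.918). The 8 mesenchymal and bone-lineage genes fixed for the line differed widely in level. The collagen gene COL1A1 had group means of 8.19 to 8.85 and the matrix gene SPARC 6.60 to 8.63. VIM had its highest mean, 7.79, in uninduced untreated samples. FN1 lay between 4.39 and 7.22, CDH2 between 3.63 and 6.74 and THY1 between 3.69 and 4.81. RUNX2, the bone-lineage transcription factor, lay between 3.11 and 3.87, and ALPL between 2.29 and 3.06. The 15 measured markers of other cell types had group means between 2.02 and 4.40. That range holds all group means of RUNX2 and ALPL.

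In the 12 mRNAs of the heavy strand the order of the group means was the same: highest in uninduced untreated, then induced untreated, then induced Xrn1, and lowest in uninduced Xrn1. ND6 differed, with its highest mean in induced untreated and its lowest in induced Xrn1 samples. The ranges of the 2 middle groups, 1 with Xrn1 and 1 untreated, overlapped in 0 of the 13 mRNAs. The ranges of induced Xrn1 and uninduced Xrn1 samples overlapped for CYTB, COX1, ATP6 and ND6, and those of induced untreated and uninduced untreated samples for ND3, CYTB, COX1, COX3, ATP8 and ND6.

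**Figure D1:**
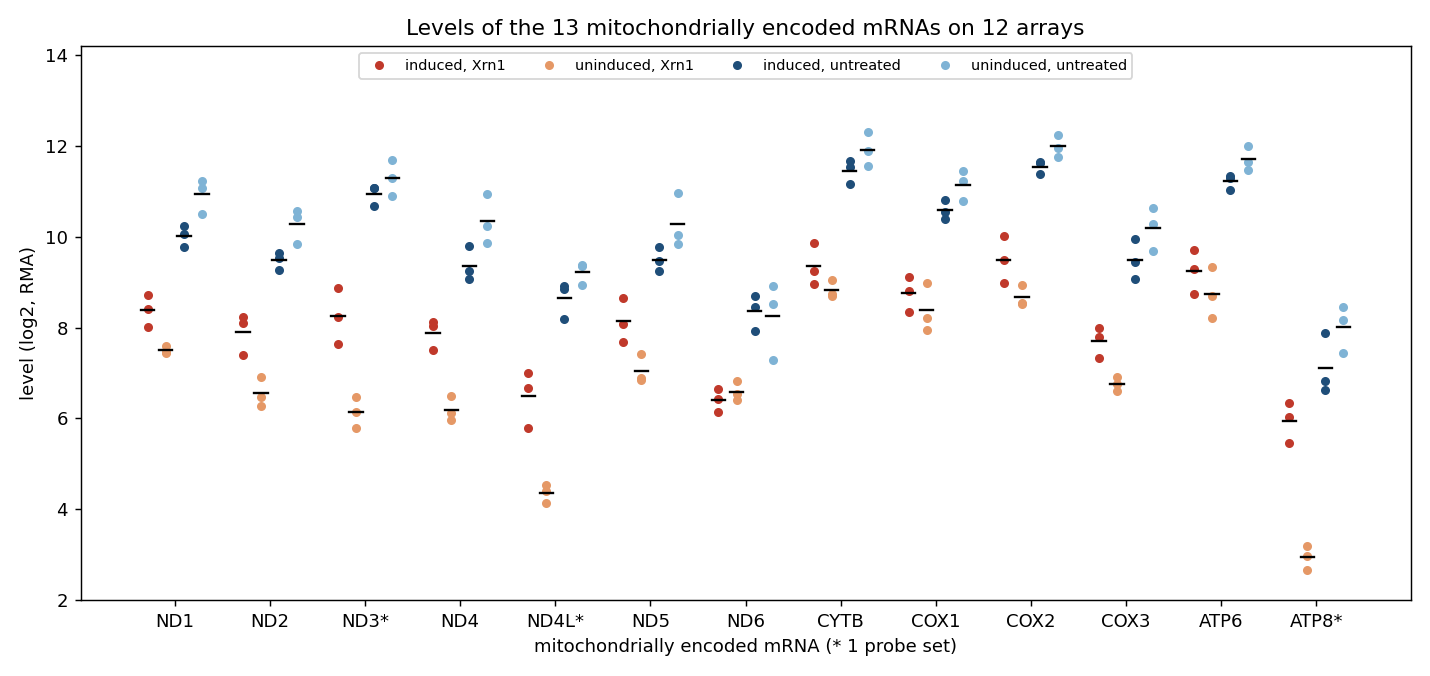
Levels (log2, RMA) of the 13 mitochondrially encoded mRNAs, with a point for each array, a bar for the group mean and 3 arrays in each of the 4 groups. For every mRNA the Xrn1 points lie below the untreated points of the same cells, and ND6 shows the smallest gap in uninduced cells.

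Digestion with Xrn1 in uninduced cells lowered every mitochondrially encoded mRNA that could be tested: 10 of 10 genes fell, where 31.8% of all 16883 genes were called lower and 7.24% higher. Their median change was -3.27, against -0.27 over all genes. The brightest 5% of genes, 845 in number and including the members, had a median of -1.54 and 75.3% called lower. Most of these 845 genes were dimmer than the members, here and in the later comparisons. By mean level 9 of the 10 members were among the top 17 genes, and ND6 ranked 56. The ranges of both groups were apart for all 10, as for 33.6% of all genes.

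ND4, a membrane subunit of complex I, was at 5.96, 6.13 and 6.49 in the uninduced Xrn1 samples, against 10.23, 10.93 and 9.87 in the uninduced untreated samples. Its lowest untreated value was thus above its highest Xrn1 value by more than the spread of either group. Its change of -4.15 (95% confidence interval -4.82 to -3.48, limma adjusted p = 4.64e-30) was the 2nd largest fall of all genes tested. ND2, another complex I subunit, was at 6.28, 6.92 and 6.47 with Xrn1, against 10.56, 10.44 and 9.85 without it, a change of -3.73 (limma adjusted p = 1.11e-24). Among the other complex I subunits, ND1 changed by -3.43 and ND5 by -3.22.

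The subunits of the later complexes fell as well. COX3, a core subunit of cytochrome c oxidase (complex IV), was at 6.75, 6.92 and 6.60 in the uninduced Xrn1 samples, against 10.29, 10.63 and 9.69 in the uninduced untreated samples, with no overlap and a change of -3.44. COX2, which holds the copper site that receives electrons from cytochrome c, changed by -3.32 and COX1, the catalytic subunit, by -2.76. CYTB, the cytochrome b of complex III, was at 8.70, 9.04 and 8.73 with Xrn1, against 11.88, 12.31 and 11.56 without it. Its change was -3.09 and that of ATP6, a proton-channel subunit of ATP synthase, -2.96. These 5 genes had limma adjusted p-values of 3.40e-14 or less.

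ND6, the only mRNA of the light strand and a complex I subunit, had the smallest fall of the 10. It was at 6.82, 6.41 and 6.54 in the uninduced Xrn1 samples, against 8.93, 8.52 and 7.29 in the uninduced untreated samples, a change of -1.65 with a 95% confidence interval of -2.32 to -0.98 (limma adjusted p = 9.99e-06). The interval lies above those of ND1, ND2, ND4, ND5, CYTB, COX2 and COX3, and overlaps those of COX1 and ATP6. All these intervals use the common SD of 0.418, while the own residual SD of ND6, 0.498, was the largest of the 10. No adjusted test set these changes in uninduced cells against each other. The within-array comparison given further on tested only the average over both states of the cells.

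The 3 genes with a single probe set had larger falls than the mean of any of the other 10. A single probe set is not the like of such a mean: among probe sets of the 10, falls reached -5.44 for ND4 and -4.60 for COX3. ATP8, a small membrane subunit of ATP synthase, was at 2.96, 3.19 and 2.67 in the uninduced Xrn1 samples, against 8.18, 8.46 and 7.44 in the uninduced untreated samples. Its change was -5.08 (limma adjusted p over all 705699 probe sets kept = 2.87e-07). ND3, a small complex I subunit, was at 6.15, 5.80 and 6.46 with Xrn1, against 11.30, 11.69 and 10.89 without it (-5.16, adjusted p = 1.93e-07). ND4L, the complex I subunit on the RNA of ND4, changed by -4.86 (adjusted p = 3.08e-07). In each of the 3 both groups were apart.

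**Figure D2:**
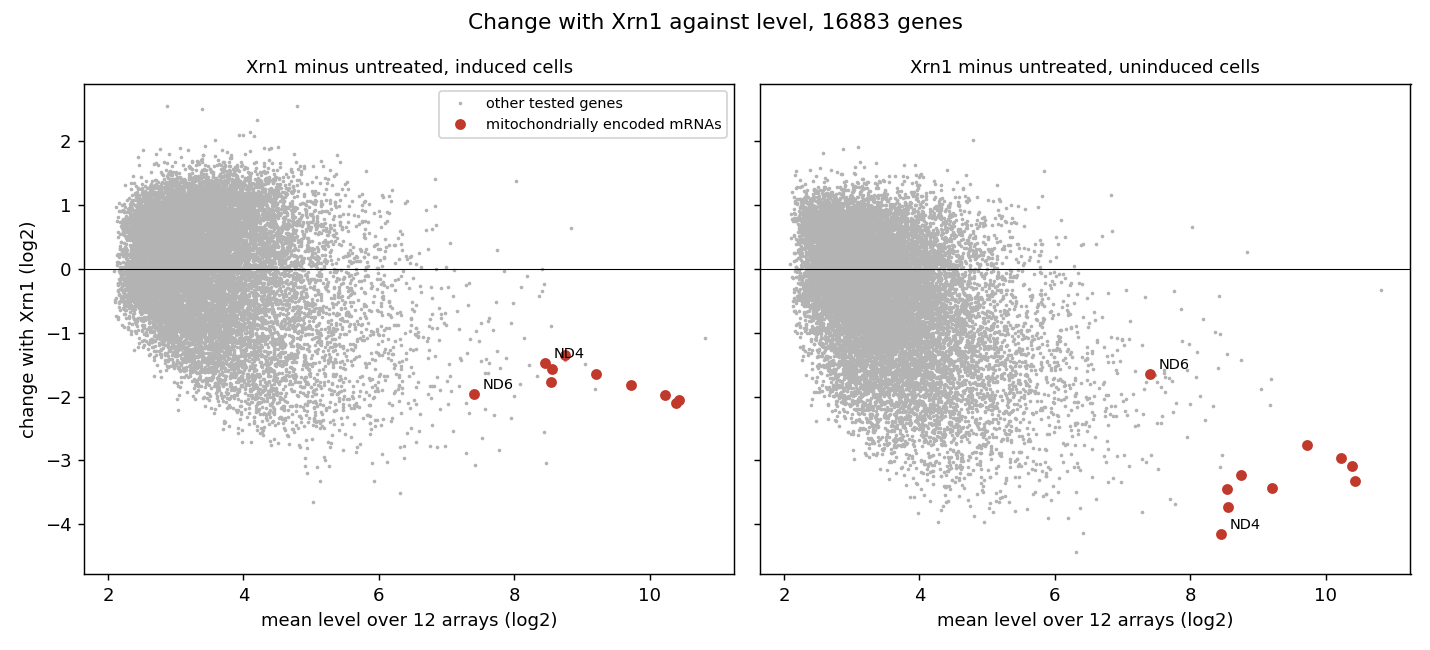
Change with Xrn1 (log2, Xrn1 minus untreated) against the mean level over 12 arrays (log2) for 16883 genes, with the 10 tested mitochondrially encoded mRNAs in red. The members lie at the bright end, below 0 in both panels, at -2.11 to -1.35 in induced cells and -4.15 to -1.65 in uninduced cells.

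Probe sets of the same mRNA changed in the same direction in uninduced cells, though by differing amounts. In uninduced cells 53 of the 54 probe sets fell, where 10.8% of all probe sets kept were called lower, and 52 had ranges apart (15.5% of all probe sets). The median change over the 54 was -3.15, with a range of -5.44 to -0.89, and the exception was a probe set of ND6 at -0.89. All 9 probe sets of COX1 fell, by -3.33 to -2.15. The 5 probe sets of ND4 changed by -5.44 to -2.63, the 7 of COX3 by -4.60 to -2.16, and the 5 of ND6 by -2.38 to -0.89. With the 54 divided by their mean over all 12 arrays, the 27 dimmer ones had a median of -3.44 and the 27 brighter ones -2.98.

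Of the 54 probe sets, 10 (of COX1, ND2, COX2 and ATP6) have identifiers apart from the other 44, next to those of probe sets for olfactory receptor genes. RefSeq (GRCh38.p14) places copies of these 4 genes, the pseudogenes MTCO1P12, MTND2P28, MTCO2P12 and MTATP6P1, next to each other in the nuclear genome, and on which copy these probe sets were designed is not stated in those sources. Their changes in uninduced cells had a median of -3.03, against -3.17 for the other 13 probe sets of the same 4 genes. In induced cells these medians were -1.96 and -1.97. Without the 10 probe sets all 9 genes that still had 3 probe sets fell in both states of the cells. RNA of a nuclear copy and of the mitochondrial gene cannot be told apart by these values.

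In induced cells, where K294A was switched on, Xrn1 again lowered all 10 tested genes, where 17.8% of all genes were called lower and 21.6% higher. The median change was -1.80, against 0.10 over all genes and -0.81 over the brightest 5%, of which 50.1% were called lower. The ranges were apart for all 10, as for 22.6% of all genes.

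Among the 10 genes tested at gene level CYTB had the largest fall. It was at 9.24, 8.96 and 9.85 in the induced Xrn1 samples, against 11.66, 11.54 and 11.17 in the induced untreated samples, a change of -2.11 (limma adjusted p = 4.37e-08). COX2 changed by -2.05, ATP6 by -1.98, COX1 by -1.83 and COX3 by -1.78. ND6 was at 6.44, 6.65 and 6.14 in the induced Xrn1 samples, against 8.70, 8.46 and 7.93 in the induced untreated samples. That change of -1.96 (limma adjusted p = 4.31e-07) stood among the larger of the 10, unlike its place in uninduced cells. The other complex I subunits among these 10 genes had the smallest falls: ND1 -1.65, ND2 -1.57, ND4 -1.48 and ND5 -1.35. ND4 was at 8.03, 7.51 and 8.12 with Xrn1, against 9.24, 9.79 and 9.07 without it.

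Of the single probe sets in induced cells, ND3 changed by -2.70 (limma adjusted p = 0.000671) and ND4L by -2.16 (adjusted p = 0.00471). ATP8 was at 6.04, 5.46 and 6.34 in the induced Xrn1 samples, against 6.63, 7.89 and 6.82 in the induced untreated samples. The groups did not overlap, but the change of -1.17 did not pass (adjusted p = 0.117). Over the 54 probe sets 44 fell, where 5.52% of all probe sets were called lower, and 49 had ranges apart (11.1% of all). All 27 brighter probe sets fell, with a median of -2.01, and 17 of the 27 dimmer ones, with a median of -1.55. The probe sets that did not pass were 3 of ND2, 2 of ND4 and 1 each of COX1, COX3, ND5, ND6 and ATP8. Within an mRNA the changes spread from -2.44 to 0.09 for ND5, -2.47 to -0.42 for COX1 and -2.13 to -0.66 for ND4. Those of COX2 lay closer together, from -2.22 to -1.97.

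**Figure D3:**
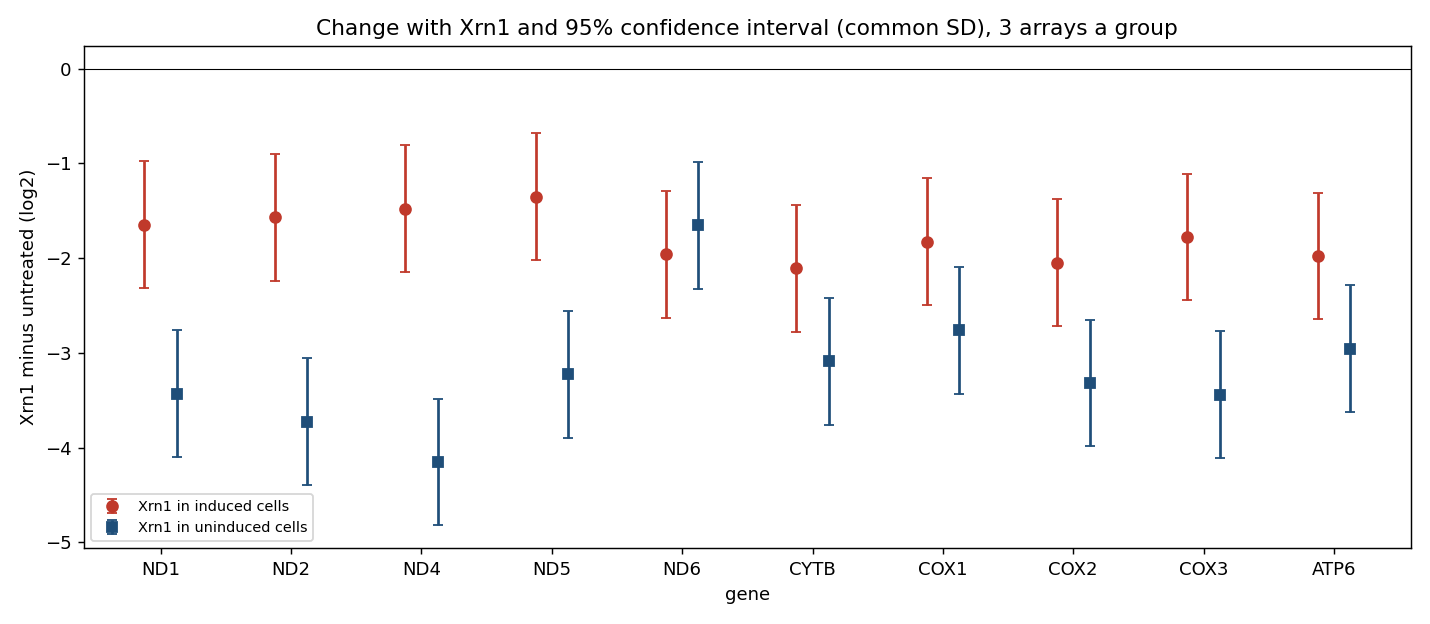
Change with Xrn1 (log2, Xrn1 minus untreated) of the 10 tested genes in induced and uninduced cells, with 95% confidence intervals from the common SD and 3 arrays in each group. All intervals lie below 0, and ND6 is the only gene with the lower value in induced cells, at -1.96, against -1.65 in uninduced cells.

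Both sets of calls depended on the scaling between arrays. Centring each array on its median gene left all 10 genes lower in both states of the cells, with changes of -2.22 to -1.46 in induced and -3.80 to -1.30 in uninduced cells. After cyclic loess, which removes differences between arrays that follow the signal, 0 of 10 passed in induced cells, with a median of -0.04, and 6 of 10 were lower in uninduced cells (ND1, ND2, ND4, ND5, COX2 and COX3), with a median of -0.78. The cause of this loss was not tested.

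**Figure D4:**
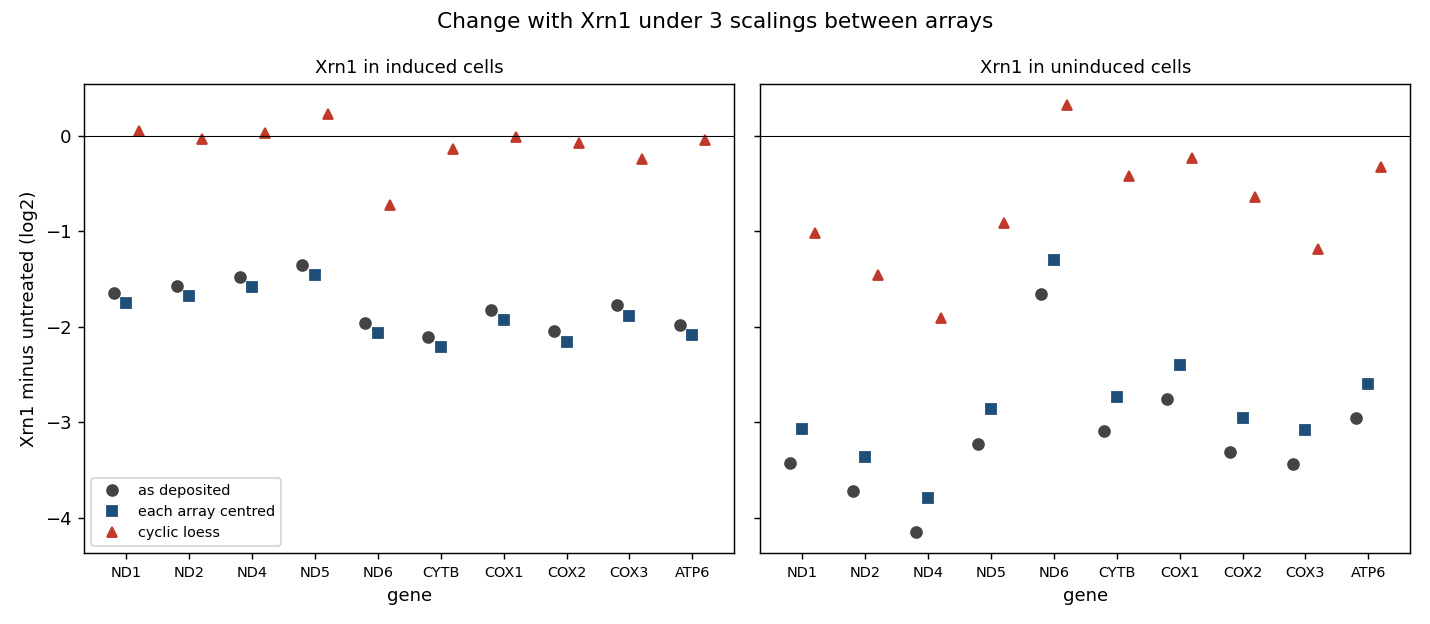
Change with Xrn1 (log2, Xrn1 minus untreated) of the 10 tested genes for the values as deposited, with each array centred on its median gene, and after cyclic loess. Centring moves every gene by the same amount, and after cyclic loess the induced values lie between -0.72 and 0.23 and the uninduced ones between -1.91 and 0.32.

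The fit gave every gene the common SD of 0.418, since limma estimated an infinite prior, and the members' own residual SDs lay between 0.289 and 0.498. With each gene's own spread, 9 of 10 still fell in induced cells, ND5 missing the threshold at an adjusted p = 0.0521, and 10 of 10 in uninduced cells (adjusted p of 0.000643 to 0.0173). With any 1 of the 6 arrays of a state left out, induced untreated replicate 3 and uninduced Xrn1 replicate 2 among them, the count for that state was 10 of 10.

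The difference of both Xrn1 effects asks whether the fall was the same with and without induction of K294A by doxycycline. It was smaller in induced cells for 6 of the 10 genes, where 20.6% of all genes passed in that direction and 1.23% in the other. ND4 had the largest difference, 2.67 (95% confidence interval 1.73 to 3.62, limma adjusted p = 0.000265), followed by ND2 at 2.15, ND5 at 1.87, ND1 at 1.78, COX3 at 1.67 and COX2 at 1.27. The median of the 10 was 1.47, against 0.70 over all genes and 0.75 over the brightest 5%, of which 20.8% passed. For these 6, every one of the 9 differences between an Xrn1 and an untreated array lay higher in induced cells than all 9 in uninduced cells, as for 19.5% of all genes. CYTB, COX1 and ATP6 were at 0.98, 0.94 and 0.98 and did not pass (limma adjusted p of 0.105 to 0.122). ND6 was at -0.31, with an interval of -1.25 to 0.64.

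Among single probe sets, ATP8 showed a difference of 3.91 (limma adjusted p = 0.0627), ND4L of 2.70 (adjusted p = 0.0946) and ND3 of 2.46 (adjusted p = 0.105). Only 1 of the 54 probe sets passed, a probe set of ND4 at 4.78, where 0.00638% of all probe sets were called higher. The 5 probe sets of ND4 differed widely, from 0.57 to 4.78, with a median of 1.97. The difference was larger over the 27 dimmer probe sets, with a median of 2.02, than over the 27 brighter ones, with a median of 0.93. Of the 6 calls, 0 remained with each gene's own spread (adjusted p of at least 0.0925) or without the uninduced samples CM5 and CM5X (adjusted p of at least 0.133), which are uninduced replicate 2 of both treatments. After cyclic loess 2 passed (ND2 and ND4). The count was 1 without induced Xrn1 replicate 3, 2 without induced Xrn1 replicate 1, and 3 without induced untreated replicate 1 or uninduced Xrn1 replicate 2. ND4 passed in 12 of 12 fits with an array left out, and COX2 in 1.

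Induction of K294A without Xrn1 changed none of the 10 genes by limma's adjusted p, where 0.0296% of all genes were called lower and 0.0118% higher. Of the 54 probe sets 0 passed, as did 0% of all probe sets. At an unadjusted p under 0.05 there were 5 of the 10 genes, and 30.8% of all genes. The changes lay between -0.98 (ND4) and 0.12 (ND6), with a median of -0.64, against -0.35 over all genes. ND1 was at 10.06, 10.24 and 9.77 in the induced untreated samples, against 11.07, 11.22 and 10.51 in the uninduced untreated samples, with no overlap and a change of -0.91 (95% confidence interval -1.58 to -0.24, adjusted p = 0.110). Without induced untreated replicate 3, the array that correlated best with an uninduced one, ND1 passed at -0.78 (adjusted p = 0.0482). The ranges of induced and uninduced samples were apart for 6 of 10, all lower in induced samples, as for 17.4% of all genes.

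Among the RNAs left after Xrn1, ND4 was higher in induced samples. Its level was 8.03, 7.51 and 8.12 in the induced Xrn1 samples, against 5.96, 6.13 and 6.49 in the uninduced Xrn1 samples, with no overlap, a change of 1.70 and a limma adjusted p = 0.00292. This was 1 call in 10 genes, where 0.0533% of all genes (0.473% of the brightest 5%) were called higher and 0.00592% lower. The 5 probe sets of ND4 changed by 0.20 to 3.16, and 0 of them passed as single probe sets. ND2 changed by 1.36 (adjusted p = 0.0867), ND5 by 1.09 and COX3 by 0.94. The ranges were apart for 6 of 10 genes, all higher in induced samples, as for 31.3% of all genes. The median was 0.85, against 0.28 over all genes, and ND6 was at -0.18. The single probe set of ATP8 differed by 3.00 (limma adjusted p over all probe sets = 0.0408), where 0.00581% of all probe sets were called higher. The call of ND4 ended after centring (adjusted p = 0.104), with its own spread (adjusted p = 0.578), with the median of its probe sets (1.08), without CM5 and CM5X (adjusted p = 0.355) and without any of 4 single arrays, induced Xrn1 replicate 1 (1.62) or 3 (1.58) or uninduced Xrn1 replicate 1 (1.58) or 2 (1.66).

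To compare the mRNAs with each other free of a constant offset of an array, each gene was set against the median of the other 9 on the same array. Differences between arrays that follow the signal are not removed by this. ND6 was the dimmest of the 10, with a mean of 7.40, against 8.45 to 10.42 for the others. Averaged over both states of the cells, 0 of the 10 genes passed in an exact two-sided permutation test over 400 reassignments within states. Its smallest possible p is 0.005, so after adjustment over the 10 genes a single gene alone could not fall under 0.05. The average also lets changes of opposite sign in the 2 states cancel. This test therefore cannot show that the mRNAs changed alike. The smallest p adjusted over the 10 genes was 0.50, and 0 of the 10 unadjusted values were under 0.05. ND6 had the largest average, 0.73 (exact permutation p = 0.115), made of values of opposite sign. In uninduced cells it stood at -0.62, -1.18 and -0.93 relative to the others with Xrn1, against -2.15, -2.70 and -3.22 without it, with no overlap. In induced cells it stood at -1.96, -1.36 and -2.59 with Xrn1, against -1.36, -1.78 and -1.84 without it, and the groups overlapped. ND4 was lower relative to the others in uninduced Xrn1 samples, at -1.48, -1.47 and -0.98, against -0.84, -0.29 and -0.64 in uninduced untreated samples. In induced cells it stood at -0.37, -0.50 and -0.60 with Xrn1, against -0.82, -0.45 and -0.70 without it, the opposite direction with overlapping groups (average -0.28, exact permutation p = 0.20). The values of ND2, CYTB, COX1, COX2 and ATP6 also differed in sign between the states.

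**Figure D5:**
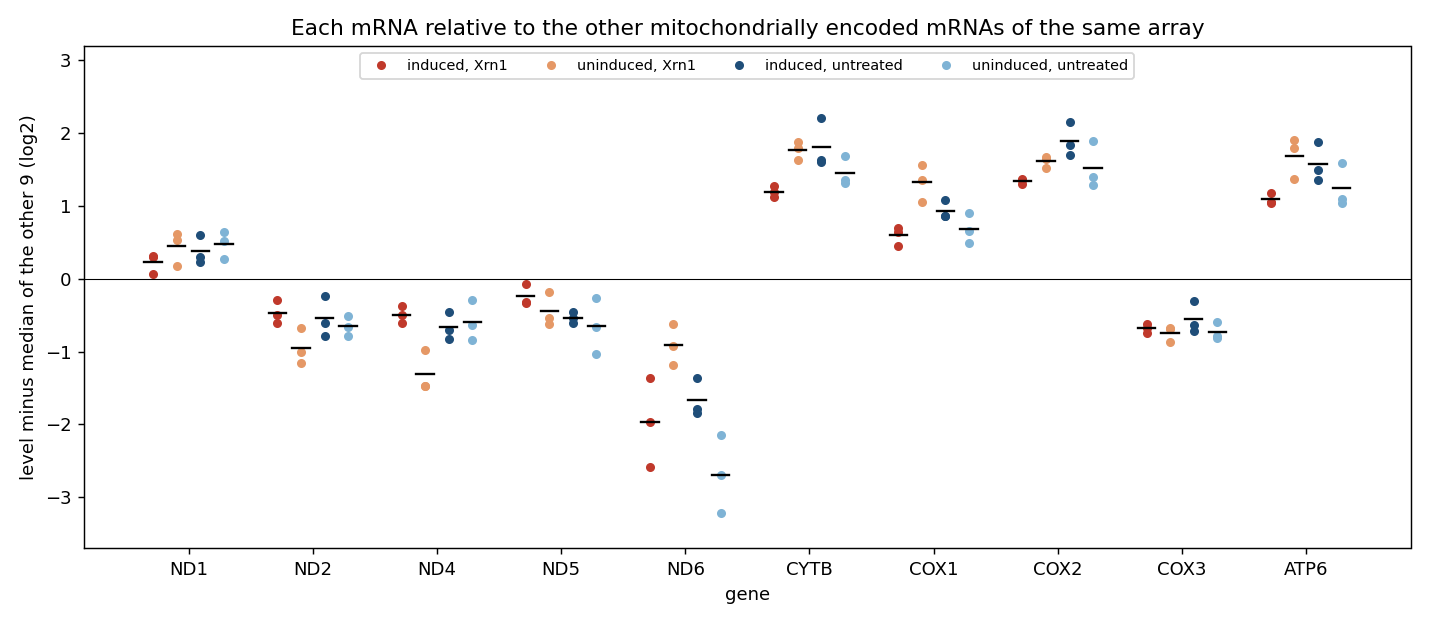
Level of each of the 10 tested mRNAs minus the median of the other 9 on the same array (log2), with a point for each array and a bar for the mean of the 3 arrays of a group. ND6 has a mean of -0.91 in uninduced Xrn1 samples, against -2.69 in uninduced untreated samples, and COX3 lies between -0.87 and -0.30 on all arrays.

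Over the 12 arrays the level of ND6 also followed the others less closely. After each group's mean was removed, its correlations with the other 9 genes had a median of 0.18, and those of the other genes had medians of 0.63 to 0.87. These points share arrays and their normalisation. Of 16310 other tested genes with an accepted symbol, those most like the mean of the 10 members were RPN2, a subunit of the oligosaccharyltransferase (Pearson's r = 0.990 over 12 arrays), ATP5F1B, the catalytic beta subunit of ATP synthase (0.987), ANXA2, a phospholipid-binding annexin (0.986), NCAPD2 of condensin (0.984) and MTCH2 of the outer mitochondrial membrane (0.983). In all, 958 genes exceeded 0.9, and all points share the division into Xrn1 and untreated arrays.

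The nuclear-encoded partners in the same complexes, made from capped mRNAs, also fell in part. Of 70 tested subunits, 35 fell and 1 rose with Xrn1 in uninduced cells, with a median of -0.78, where 31.8% of all genes were called lower and 7.24% higher. In induced cells 13 fell and 15 rose, with a median of 0.16, which is near the 17.8% lower and 21.6% higher over all genes. The difference of both Xrn1 effects passed for 26 of the 70, all with the higher value in induced cells, with a median of 1.06, where 20.6% of all genes passed in that direction. By complex, 15 of 36 subunits of complex I fell in uninduced cells, 4 of 9 of complex III, 6 of 11 of complex IV and 10 of 14 of ATP synthase. The smallest p-values were those of ATP5F1B (5.80 in uninduced Xrn1 samples, against 9.41 in uninduced untreated samples), ATP5F1C, the gamma subunit (-2.57), and ATP5PF (-1.80) for ATP synthase, and of NDUFA9 (-3.13), NDUFS3 (-2.41) and NDUFA12 (-2.41) for complex I. UQCRC2 (-2.87), UQCR10 (-2.05) and UQCRFS1, the Rieske iron-sulphur protein (-1.41), led complex III, and COX7B (-1.48), COX6C (-1.21) and COX5A (-1.02) complex IV. ATP5F1B, at -2.29 in induced cells, fell there more than any of the 10 tested members.

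Nuclear-encoded factors that make, process or protect mitochondrial RNA fell in 19 of 32 with Xrn1 in uninduced cells, with a median of -0.92, where 31.8% of all genes were called lower. In induced cells 17 of 32 fell and 1 rose, with a median of -0.96, where 17.8% of all genes were called lower and 21.6% higher. SLIRP, which binds mitochondrial mRNAs together with LRPPRC, changed by -3.33 in uninduced cells, the helicase SUPV3L1 of mitochondrial RNA decay by -2.70, and LRPPRC by -2.13. With induction 0 of the 32 passed, with or without Xrn1, where at most 0.0533% of all genes passed in either direction. No probe set with a single symbol of the 2 mitochondrial rRNAs was found, and these are not analysed here.

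Other RNAs moved with Xrn1 too. Of 4 nuclear-retained RNAs, MALAT1 (-2.70) and NEAT1 (-1.57) fell in uninduced cells, where 31.8% of all genes were called lower and 7.24% higher. In induced cells MALAT1 fell (-1.91) and MEG3 rose (1.38), where 17.8% of all genes were called lower and 21.6% higher. MEG3 was dim, with group means of 2.35 to 3.74. The summed linear level of the 4 was 24.0 to 41.3 in uninduced Xrn1 samples, against 89.9 to 103.8 in uninduced untreated samples, and 37.8 to 43.6 in induced Xrn1 samples, against 44.4 to 69.2 in induced untreated samples. Of 15 measured markers of other cell types, 0 passed in uninduced cells, where 31.8% of all genes were called lower and 7.24% higher, and 6 rose in induced cells, where 21.6% of all genes were called higher. They had summed linear levels of 160.1 to 183.1 in induced Xrn1 samples, against 105.6 to 165.6 in induced untreated samples. None of these markers was at 0. Their group means of 2.02 to 4.40 lay around the level of the median gene on an array, 3.08 to 3.82. The values thus do not show that these markers were expressed, and their part in the results was not tested.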

How the data were processed

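The deposited table holds log2 values of 1411399 probe sets on 12 exon arrays, which the authors normalised by RMA; oligo is the package named, per the submitters' processing notes. Software versions and array annotation: not given in the sources used here. All 12 value columns were mapped to samples by name. Probe sets were named through the platform annotation (1 symbol for 357604, several for 15322, none for 1038473), and older symbols were updated through RefSeq. All 13 members matched RefSeq by symbol. Probe sets were kept when their mean over the arrays exceeded the median, 2.04, and gene values are means of at least 3 kept probe sets, as log2 values not normalised again. Gene and probe set values were fitted with limma 3.58.1 in R 4.3.3 over 4 group means and 8 residual degrees of freedom. The fit was tested on simulated data. Replicates are numbered by accession within a group. The titles of CM1X and CM2X, both induced Xrn1 samples, carry the same replicate number, so the numbers used here differ from the titles for CM1X. Samples CM1 to CM6 with and without X share a sample number, but the deviations of such samples from their group means correlated at -0.71 to 0.13, so the numbers were not used to pair them. The genes named are all members, up to 3 per list with the smallest p for Xrn1 in uninduced cells, and the 5 most like the members' mean; values of other list members printed beyond this were chosen after they were seen. The members and lists were chosen with earlier results of these data known. Alternatives covered probe set summary, filters, scaling, prior, samples, block and each array left out. An alternative without the 10 probe sets with identifiers apart was chosen after seeing the data. Of the gene lists, the mesenchymal genes had 5 of 8 lower with Xrn1 in uninduced cells and 4 of 8 in induced cells. Over all genes 31.8% were called lower in uninduced cells and 17.8% in induced cells. Among the brightest 5% of genes these shares were 75.3% and 50.1%.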

Additional observations from a re-analysis of the deposited data

Results flagged for a closer look

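For 6 genes the effect of Xrn1 differed between induced and uninduced cells by the test of the difference itself (limma, Benjamini-Hochberg over all genes). The Xrn1-minus-untreated change in induced minus that in uninduced cells was 2.67 for ND4, 2.15 for ND2, 1.87 for ND5, 1.78 for ND1, 1.67 for COX3 and 1.27 for COX2. All 3 Xrn1 samples lay below all 3 untreated samples in both states for each of these genes, so the difference is one of size. The difference over all 16883 genes had a median of 0.70. Groups of 3 samples were not tested for single outlying samples.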

How the results depend on the processing

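With Xrn1 in uninduced and induced cells, 10 of 10 genes fell under each alternative tried, except cyclic loess (6 and 0), each gene's own spread in induced cells (9) and alternatives that changed how many genes were measured (13 of 13 with 1 probe set per gene, 9 of 9 without the 10 probe sets with identifiers apart). After cyclic loess ND6 turned to 0.32 in uninduced cells, and ND1 (0.052), ND4 (0.0337) and ND5 (0.235) in induced cells, none of which passed. For the difference of both Xrn1 effects, called for 6 genes, the count was 2 with the median of probe sets, 2 after cyclic loess, 0 with each gene's own spread and 0 without CM5 and CM5X. For induction with Xrn1, called for 1 gene, it was 0 with the median of probe sets, after centring, with own spread and without CM5 and CM5X, 2 with dim probe sets kept or with a trended robust prior, 4 of 13 with 1 probe set per gene, and 6 with only the groups compared. With a single array of the groups compared left out, the counts were 10 to 10 in both Xrn1 comparisons, 1 to 6 for the difference, 0 to 1 for induction without Xrn1 and 0 to 1 for induction with Xrn1. Of the 54 probe sets, 1 was called for the difference and 0 when only probe sets above the upper quartile were tested, after centring or with own spread; for induction with Xrn1 1 was called and 0 after centring or with own spread. With the replicate number as a block, the counts were 10 for Xrn1 in either state, 0 for induction without Xrn1, 1 for induction with Xrn1 and 5 for the difference, and with the sample number as a block 2 for the difference (10 for Xrn1 in either state). In 5 of 6 same-numbered pairs the deviations correlated below 0. A change of sign was counted as such only where the value passed in at least 1 of both fits. The causes of these changes were not tested. Precision is limited by 3 arrays a group.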

Other observations

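Probe sets that carry a mitochondrial symbol together with another gene numbered 4 and were left out of the gene values. The probe set shared by ATP6 and ATP8 was at 7.79 ± 0.52 (SD, n = 3) in induced Xrn1 samples and 5.82 ± 0.20 in uninduced Xrn1 samples, against 10.15 ± 0.17 in induced untreated and 10.54 ± 0.87 in uninduced untreated samples. Its changes with Xrn1 were -2.36 in induced cells (limma adjusted p = 0.00339) and -4.72 in uninduced cells (limma adjusted p = 6.90e-07), between those of the probe sets of ATP6 alone and that of ATP8 alone in uninduced cells. The probe set annotated to both ATP13A5, a transport ATPase, and ATP6 changed by -2.06 and -3.07. The probe sets annotated to both HNRNPM, an RNA-binding protein, and ND1 changed by -1.88 and -1.83 in induced cells and by -2.50 and -2.47 in uninduced cells. All 4 passed in both states, and their signal was 8.57 to 11.06 on average.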
